A study of Mus musculus with 30 samples.

Results

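Glycolysis and glucose uptake were followed through 10 genes of the deposited expression table, which lists 22477 genes. The 10 genes were picked by symbol and are the glucose transporters Slc2a1 and Slc2a3, the hexokinases Hk1 and Hk2, the phosphofructokinase subunits Pfkl and Pfkp, the phosphoglycerate kinase Pgk1, the pyruvate kinase Pkm, the lactate dehydrogenase subunit Ldha and the pyruvate dehydrogenase kinase Pdk1. All 10 were found, and all 10 had at least 1 FPKM (fragments per kilobase of transcript, scaled to the mapped fragments of the library) in each of the 15 conditions.

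The study asked how cells leaving pluripotency lose the ability to return to it, and measured polyadenylated RNA of mouse secondary induced pluripotent stem cells (iPSCs) by RNA-seq. Every condition used the same kind of cell, which carries transgenes for Oct4, Sox2, Klf4 and cMyc (OSKM) that doxycycline (dox) switches on, a GFP reporter in place of 1 Nanog allele, and nuclear RFP that is always expressed. The time course covered 0, 24, 36, 48, 60, 72 and 96 h after 2i/LIF (2 kinase inhibitors and the cytokine LIF) was withdrawn, in N2B27 medium. Cells differentiated for 0, 24, 48 or 96 h were also re-seeded as single cells and kept for 48 h in serum and LIF, either dox-free (-dox) or with the transgenes switched on (+dox). The labels give 30 samples, 2 for each of the 15 conditions, but the table holds 1 value per condition that combines both. Hence no spread between samples and no test can be given, read depth is unknown, and every difference below compares 2 combined values. A gene is said to have risen, fallen or changed where the ratio of 2 values was 2 or more and the larger reached 1 FPKM, and this rule has no error attached. Beside each count of changed members stands the share of all genes reaching 1 FPKM in that comparison that met the same rule.

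Glycolysis splits glucose into pyruvate in the cytosol. Glucose enters through facilitative transporters, is trapped by hexokinase, passes the committed step at phosphofructokinase, and yields ATP at phosphoglycerate kinase and pyruvate kinase; lactate dehydrogenase then turns pyruvate into lactate, while pyruvate dehydrogenase kinases hold pyruvate out of the mitochondrial acetyl-CoA route. Pluripotent cells are known for active glycolysis, and cells of the early post-implantation type are known to lean on it further than naive ones do.

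The labels were checked against marker genes. Naive pluripotency markers, which are high before differentiation, summed to 1462 FPKM at 0 h, 108.6 at 48 h and 50.6 at 96 h, and all 12 fell between 0 and 96 h. The list of formative markers, which holds Fgf5 and Otx2, was highest at 36 h, where it summed to 1593 FPKM against 98.0 at 0 h. The 0 h value of the time course also held more RNA of fibroblast markers than any later one. The 20 fibroblast markers summed to 1355 FPKM at 0 h, to between 138 and 327 at the other 6 timepoints, and to between 206 and 672 in the 8 re-seeded conditions. Of them, 16 fell between 0 and 24 h and 2 rose (Thy1 and Acta2). Col1a1, a fibrillar collagen, went from 229 to 21.0 FPKM. At 0 h re-seeded without dox Col1a1 was at 1.45 FPKM and Lum, another matrix gene, at 0, whereas Fn1 was at 188 FPKM. Acta2 and Tagln were higher at 96 h (97.9 and 105 FPKM) than at 0 h (8.65 and 3.88 FPKM). The sum therefore does not follow every marker. Mouse embryonic fibroblasts (MEFs) served as feeders in the maintenance culture. For the colony-forming assay the methods describe gelatin during withdrawal and MEFs at re-seeding, and they do not say whether the RNA-seq cells were grown alike. In bulk RNA, fewer cells of a type and less RNA per cell cannot be told apart, and the part of the fibroblast RNA in the members' values at 0 h was not tested.

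Over the time course Slc2a3 moved furthest of the 10 genes, and the ATP-yielding steps Pgk1 and Pkm least. Within the time course 8 of the 10 changed between some pair of timepoints, where 60.7% of all genes did, and Pgk1 and Pkm stayed within a range of 1.99-fold and 1.73-fold. The range was 35.7-fold for Slc2a3, which was wider than in 97.5% of the 8201 genes that reached 10 FPKM at some timepoint. It was 6.97-fold for Hk1, 6.14-fold for Pfkp, 5.54-fold for Pdk1 and 5.39-fold for Slc2a1. The remaining members, Pfkl, Hk2 and Ldha, ranged over 2.84-fold, 2.79-fold and 2.59-fold. Without the 0 h timepoint 7 of the 10 changed, against 51.7% of all genes, and Hk1 was the one that no longer did.

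**Figure D1:**
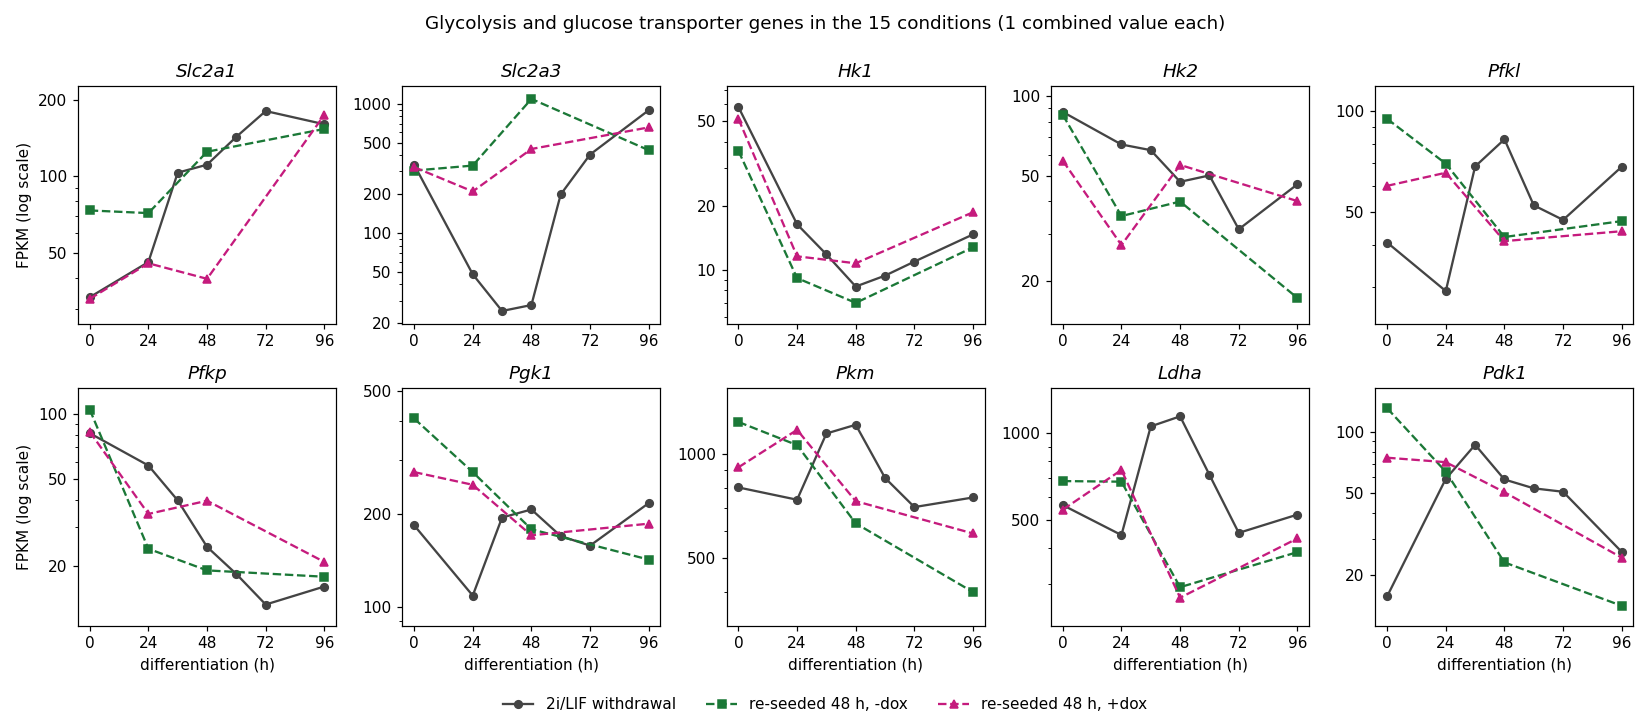
FPKM (log axis, scaled per gene) of the 10 genes against hours of differentiation, for the time course (grey circles) and for cells re-seeded for 48 h without dox (green squares) or with dox (magenta triangles). Each point is 1 value that combines 2 samples; Slc2a3 dips to 24.9 FPKM at 36 h of the time course and stands at 1088 FPKM in cells re-seeded without dox from 48 h.

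Slc2a3 encodes GLUT3, a transporter with high affinity for glucose. Its gene (ENSMUSG00000003153) lies at chr6:122727809-122801640 on the minus strand of mm10. It stood at 338 FPKM at 0 h and then at 47.9, 24.9, 27.7, 199, 404 and 889.5 FPKM (24, 36, 48, 60, 72 and 96 h). The course was thus a trough between 24 and 48 h between 2 high ends. The level fell 7.05-fold in the first 24 h, rose 7.16-fold between 48 and 60 h, then 2.03-fold and 2.2-fold in the next steps, and was 32.1-fold higher at 96 than at 48 h. Slc2a3 was the only member that met the rule in any of the last 3 steps, where 9.24%, 5.24% and 10.1% of all genes met it. At 0 h re-seeded without dox, where Col1a1 was at 1.45 FPKM, Slc2a3 was at 304 FPKM.

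Slc2a1 encodes GLUT1, the transporter of most basal glucose uptake (ENSMUSG00000028645, chr4:119108711-119137983, plus strand). It went the other way at first, with 33.5 FPKM at 0 h and 46.0, 103, 111, 143, 181 and 160.2 FPKM at the following timepoints. The level rose 2.25-fold between 24 and 36 h and was 4.78-fold higher at 96 than at 0 h. The share of Slc2a1 in the summed FPKM of both was 9.02% at 0 h, 80.6% and 80.0% at 36 and 48 h, and 15.3% at 96 h. The other transporters of the family gave little RNA, since the 8 that the table lists summed to between 8.21 and 29.0 FPKM in the 15 conditions. Slc2a8, an intracellular transporter, was at 10.3 FPKM at 0 h and 7.97 at 96 h.

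Hexokinase phosphorylates glucose. Hk1, the widely expressed form (ENSMUSG00000037012, chr10:62268855-62379908, minus strand), was at 58.2 FPKM at 0 h, then at 16.4, 11.8 and 8.35 up to 48 h, and at 9.39, 10.9 and 14.7 up to 96 h. It fell 3.56-fold in the first day and 6.97-fold by 48 h. Hk2, the form prominent in insulin-responsive and proliferating cells (ENSMUSG00000000628, chr6:82725025-82774454, minus strand), was at 87.2, 65.6, 62.5, 47.4, 50.1, 31.3 and 46.4 FPKM at the same timepoints. No step between neighbouring timepoints of Hk2 reached 2-fold. Hk2 made up 59.9% of the summed FPKM of Hk1, Hk2, Hk3 and Hkdc1 at 0 h and 85.0% at 48 h, and Hk3 was listed at 0 at both times.

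Phosphofructokinase catalyses the committed step and is built from liver, platelet and muscle type subunits. The platelet type Pfkp (ENSMUSG00000021196, chr13:6579768-6648777, minus strand) went down through 72 h, from 81.3 FPKM at 0 h to 57.7, 39.9, 24.4, 18.3 and 13.2 FPKM, and was at 16.0 at 96 h. The liver type Pfkl (ENSMUSG00000020277, chr10:77986947-78010083, minus strand) was at 40.6 and 29.1 FPKM at 0 and 24 h, at 68.5 and 82.6 FPKM at 36 and 48 h, and at 52.5, 47.5 and 68.4 FPKM from 60 to 96 h. Pfkl rose 2.35-fold between 24 and 36 h while Pfkp fell 2.37-fold between 24 and 48 h. The muscle type Pfkm ran from 21.8 FPKM at 0 h to 40.9 at 36 h and 26.8 at 96 h. The makeup of the summed phosphofructokinase FPKM therefore went from 56.6% Pfkp and 28.3% Pfkl at 0 h to 14.4% Pfkp and 61.5% Pfkl at 96 h. The 3 shares rest on FPKM, which is per length, and not on protein.

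Pgk1 (ENSMUSG00000062070, chrX:106187100-106203699, plus strand), Pkm (ENSMUSG00000032294, chr9:59656368-59679375, plus strand) and Ldha (ENSMUSG00000063229, chr7:46841475-46855627, plus strand) act in the later steps of the pathway and were among the most abundant members. Pgk1 was at 184, 109, 195, 207, 169.8, 158 and 217 FPKM in the order of the 7 timepoints. Pkm was at 801, 738, 1147, 1216, 853, 702 and 749 FPKM, and Ldha at 564, 444, 1059, 1147, 718, 451 and 522 FPKM. All 3 were lowest at 24 or 72 h, and Pkm and Ldha peaked together at 48 h. Ldha rose 2.39-fold between 24 and 36 h and fell 2.2-fold between 48 and 96 h, whereas the ratios of Pgk1 and Pkm over the same intervals were 1.79 and 1.55 up and, for Pkm, 1.62 down. Pearson's r of log2(FPKM + 1) between Ldha and Pkm was 0.98 over the 7 timepoints and 0.77 over the 15 conditions. Pgk1 and Pfkl had r = 0.83 over the 15 conditions, and Pfkp and Slc2a1 had r = -0.81. These are descriptions over conditions that share the FPKM scaling and, in the time course, follow one another. Ldha made up 57.2% of the lactate dehydrogenase FPKM at 0 h and 80.8% at 48 h, beside Ldhb, the heart type subunit. The table does not separate the M1 and M2 splice forms of Pkm.

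Pdk1 phosphorylates and inactivates pyruvate dehydrogenase (ENSMUSG00000006494, chr2:71873224-71903858, plus strand). Its values were 15.6 FPKM at 0 h, 59.0 and 86.6 FPKM at 24 and 36 h, and 58.5, 53.0, 50.97 and 25.8 FPKM from 48 to 96 h. It was the single member that rose in the first day, by 3.77-fold, and it fell 2.27-fold between 48 and 96 h. Pdk3 was the most abundant of the 4 kinases at 0 h, with 63.5% of their summed FPKM, and Pdk1 held 26.4%. At 24 and 36 h Pdk1 held 66.0% and 66.1%.

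**Figure D2:**
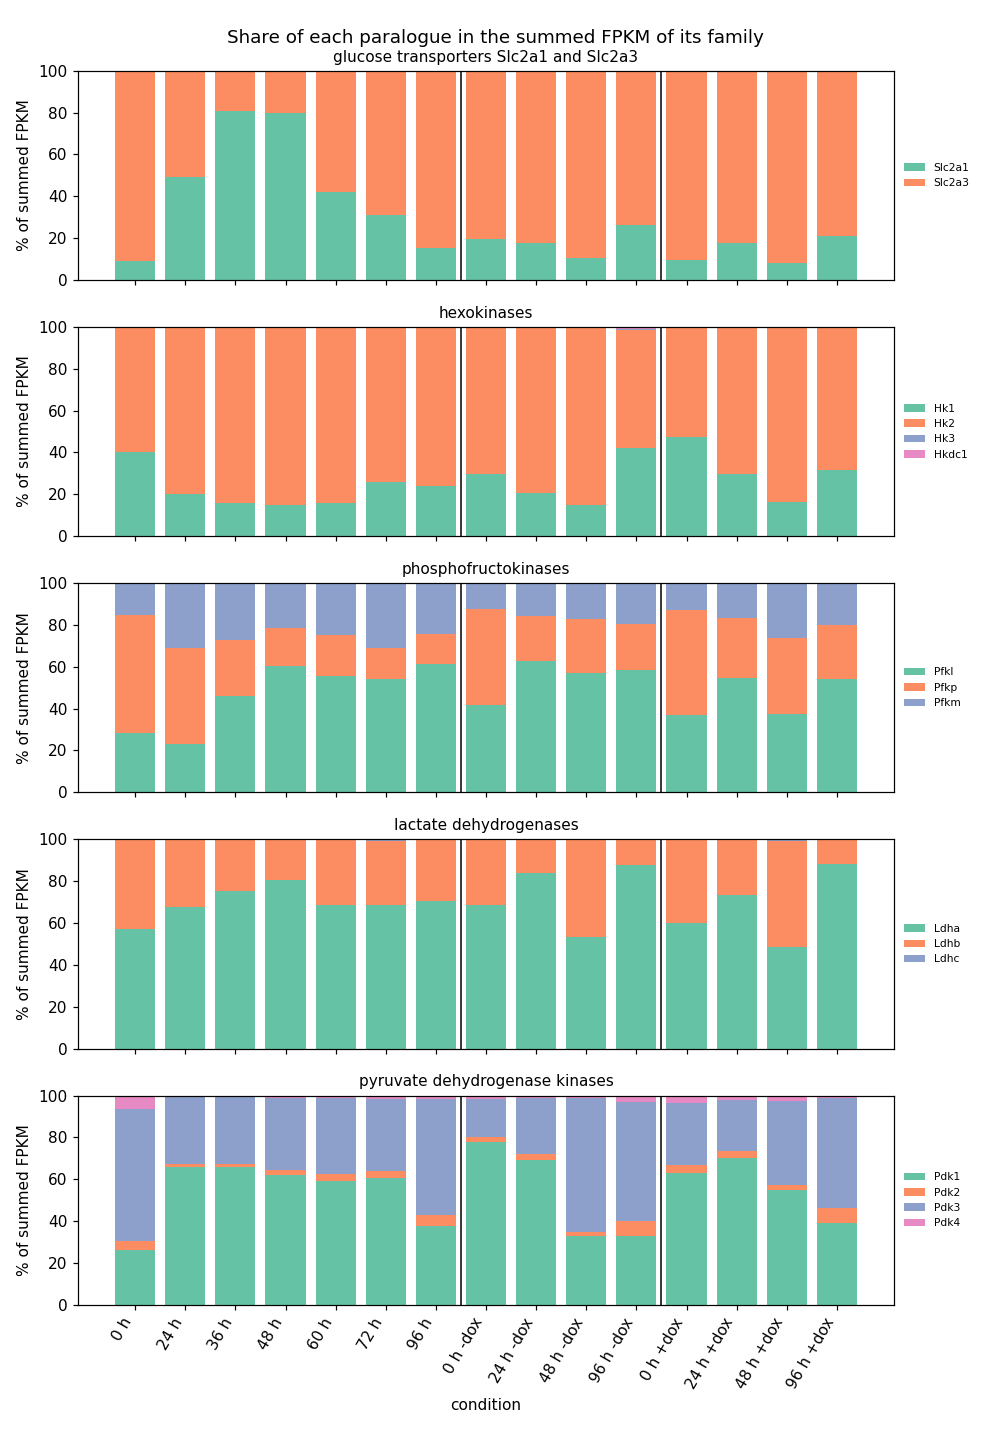
Share of each paralogue in the summed FPKM of its family (percent, stacked bars) in the 15 conditions, with black lines between the time course, the cells re-seeded without dox and the cells re-seeded with dox. Slc2a1 holds 80.6% of the 2 transporters at 36 h and 10.3% in cells re-seeded from 48 h without dox, and Pfkp gives way to Pfkl between 0 and 48 h.

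Taken by interval, 1 member rose (Pdk1) and 2 fell (Slc2a3 and Hk1) between 0 and 24 h, where 23% of all genes changed (8.64% rose and 14.3% fell). The median log2 ratio of the 10 was -0.45, against -0.01 over all genes, and fibroblast marker RNA fell over the same interval. Between 24 and 36 h 3 rose (Slc2a1, Pfkl and Ldha) and none fell, against 11.7% of all genes changed (5.44% rose and 6.28% fell), with a median of 0.60 against 0.00. No member changed between 36 and 48 h, where 4.79% of all genes did. Over the longer interval from 24 to 48 h the count was 3 higher and 1 lower, beside 16.8% of all genes (8.59% rose and 8.21% fell), with Pfkp the one that fell. Between 48 and 96 h Slc2a3 rose and Ldha and Pdk1 fell, beside 26.2% of all genes (15.1% rose and 11% fell). From end to end, 0 to 96 h, Slc2a1 and Slc2a3 rose while Hk1 and Pfkp fell, 4 of 10 where 33.3% of all genes changed (16.8% rose and 16.4% fell). From 48 to 96 h and from 0 to 96 h, 3 and 4 of 10 members are near the share of all genes. With 24 h in place of 0 h as the start, 5 of 10 changed by 96 h against 36.8% of all genes. These were Slc2a1 at 3.48-fold, Slc2a3 at 18.6-fold and Pfkl at 2.35-fold higher, and Pfkp and Pdk1 with log2 ratios of -1.85 and -1.19.

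Of the 16 other glycolytic enzymes, 11 had at least 1 FPKM at 0 or 96 h, and of these 1 rose and none fell (16.8% and 16.4% of all genes), with a median log2 ratio of 0.27 (0.07 for the members). Between 0 and 24 h 1 of them rose and 2 fell, and between 24 and 36 h 3 rose and none fell, the same counts as among the members. The one that rose was Eno3, the muscle type enolase, at 4.19 FPKM at 0 h and 56.3 at 96 h. Gapdh was at 1677, 1068, 1548 and 1363 FPKM at 0, 24, 48 and 96 h, Aldoa, an aldolase, at 1485, 752, 1639 and 1444, and Eno1, the widely expressed enolase, at 460.3, 516, 817 and 629.9. Aldoa, Tpi1 (triose phosphate isomerase) and Pgk1 each had their lowest time course value at 24 h. Aldoa and Tpi1 rose between 24 and 48 h, from 752 to 1639 and from 123 to 331 FPKM.

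Downstream of pyruvate, 2 of 17 genes of pyruvate and lactate handling rose and 3 fell between 0 and 96 h, where 16.8% of all genes rose and 16.4% fell. Slc16a3 encodes MCT4, a lactate exporter, and went from 24.3 FPKM at 0 h to a peak of 187 at 36 h and was at 92.0 at 96 h. Pdp2, a phosphatase that reactivates pyruvate dehydrogenase, fell from 13.6 to 1.10 FPKM. Ldhb was at 419 FPKM at 0 h and 216 at 96 h, and Pdhb, a subunit of pyruvate dehydrogenase, at 88.2 and 49.4, both short of 2-fold. Of 18 genes of the tricarboxylic acid cycle only Idh2 fell by 96 h, from 144 to 71.7 FPKM, and none rose. In the pentose phosphate pathway 1 of 8 fell, which was Rpe, from 21.7 to 10.7 FPKM.

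**Figure D3:**
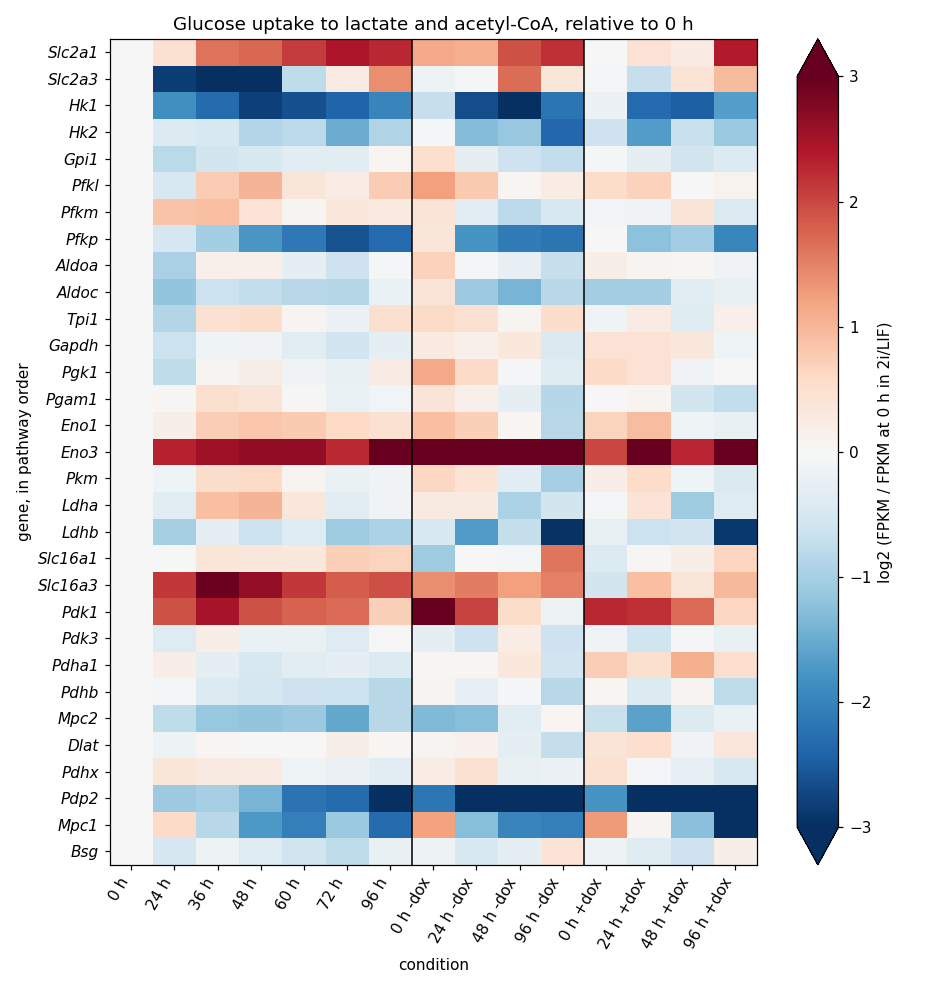
Log2 ratio to the 0 h value of the time course (colour, cut at -3 and 3) for the members and the other listed genes of glycolysis and of pyruvate and lactate fate that reached 10 FPKM, in 15 conditions. Slc2a1, Slc16a3 and Eno3 are red and Hk1 and Pfkp blue in most later conditions, and Gapdh stays pale.

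The promoters of the members were read for the letters ACGTG and GCGTG, the core of the hypoxia response element to which HIF factors can bind, on both strands. The sequences are those of RefSeq on GRCm38.p6, and 13 windows of 250 bases before a transcript start matched 9 of the 10 genes (not Slc2a3). One or the other run of letters stood in 10 of the 13 windows, in at least 1 window of each of the 9 genes, and in 38.6% of the 32851 windows of all genes. These counts use whole windows, which can reach into an exon of another transcript of the same gene. In the windows of Pfkl and Pkm no match lay before the first annotated exon base. ACGTG alone was in 5 member windows and 16.6% of all, GCGTG alone in 6 and 28.2% of all. The letters CACGTG, the E-box read by Myc family and other factors, which overlap ACGTG, were in 1 member window, that of Ldha, and in 6.02% of all. The member windows had a median of 62.8% G and C, against 52.4% over all windows, so that letters rich in CG are not equally likely in both. A match is no evidence of binding. The sequences given are stretches before the start of Ldha, Pgk1, Hk2 and Pdk1, which differ in their courses although each holds the letters, and of Hk1 at its upstream start, which holds none in this window. They run 5′ to 3′ on the gene's strand, stop before the first annotated exon base, and have each match in capitals.
Ldha, chr7:46845554-46845803, + strand: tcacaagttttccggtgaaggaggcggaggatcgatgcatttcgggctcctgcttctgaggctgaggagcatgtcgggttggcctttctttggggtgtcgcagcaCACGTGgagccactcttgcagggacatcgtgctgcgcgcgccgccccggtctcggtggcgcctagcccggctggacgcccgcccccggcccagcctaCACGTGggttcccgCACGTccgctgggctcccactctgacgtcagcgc
Pgk1, chrX:106186850-106187099, + strand: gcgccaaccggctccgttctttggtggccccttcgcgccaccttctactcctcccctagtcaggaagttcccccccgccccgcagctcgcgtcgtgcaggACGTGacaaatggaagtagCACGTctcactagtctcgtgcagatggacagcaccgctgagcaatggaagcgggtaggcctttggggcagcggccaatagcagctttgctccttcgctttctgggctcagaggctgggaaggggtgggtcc
Hk2, chr6:82774455-82774704, - strand: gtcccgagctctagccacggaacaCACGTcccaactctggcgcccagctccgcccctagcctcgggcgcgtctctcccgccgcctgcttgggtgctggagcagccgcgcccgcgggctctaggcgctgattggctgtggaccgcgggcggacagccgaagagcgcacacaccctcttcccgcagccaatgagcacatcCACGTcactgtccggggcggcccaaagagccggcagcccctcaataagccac
Pdk1, chr2:71872974-71873214, + strand: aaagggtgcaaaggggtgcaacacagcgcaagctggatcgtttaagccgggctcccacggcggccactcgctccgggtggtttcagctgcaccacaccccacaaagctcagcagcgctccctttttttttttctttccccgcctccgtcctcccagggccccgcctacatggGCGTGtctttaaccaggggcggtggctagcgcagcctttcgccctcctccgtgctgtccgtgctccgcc
Hk1, chr10:62379921-62380158, - strand: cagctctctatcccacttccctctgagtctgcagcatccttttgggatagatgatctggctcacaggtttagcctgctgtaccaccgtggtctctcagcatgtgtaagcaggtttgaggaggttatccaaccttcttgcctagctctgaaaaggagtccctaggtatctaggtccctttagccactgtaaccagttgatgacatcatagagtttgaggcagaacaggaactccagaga
The Ldha stretch holds 5 matches and those of Pgk1, Hk2 and Pdk1 hold 2, 2 and 1. Each of the 2 CACGTG of Ldha is counted once per strand, so its marked sites are fewer than its matches.

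Without dox, the members that differed between re-seeded and unseeded cells were not the same ones at each differentiation time, and this difference was not tested. Re-seeding changes the medium, the time and the plating at once, which cannot be told apart. From 0 h, 4 members rose and none fell (beside 22.1% of all genes changed). Pdk1 was at 131 FPKM in cells re-seeded without dox against 15.6 unseeded, Pgk1 at 407 against 184, Pfkl at 95.1 against 40.6 and Slc2a1 at 73.5 against 33.5. This comparison has the fibroblast markers on its unseeded side, 1355 FPKM against 206, and their part in the 4 rises was not tested. From 24 h, Slc2a3 stood at 332 FPKM against 47.9, Pfkl at 69.9 against 29.1 and Pgk1 at 273 against 109. Pfkp was lower, at 23.9 against 57.7, which made 4 changed members beside 25.5% of all genes.

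From 48 h, Slc2a3 was 39.2-fold higher after re-seeding, at 1088 FPKM, its highest value in any condition. Ldha and Pdk1 were lower there, at 292 and 23.0 FPKM against 1147 and 58.5 unseeded, and 26.8% of all genes changed. Pkm, at 630.1 FPKM against 1216, missed the rule with a ratio of 1.93. From 96 h, Slc2a3 and Hk2 were lower, at 437 against 889.5 and at 17.2 against 46.4 FPKM, where 23.6% of all genes changed. The ratio of Slc2a3, 2.04, falls short of 2 with median ratio scaling, which leaves 1 changed member.

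Among the cells re-seeded without dox, most members were lower from 48 and 96 h than from 0 h, and 4 of them (Pdk1, Pfkp, Pgk1 and Pkm) went down at each step. Against 0 h, 4 fell from 24 h (11.4% of all genes fell), 7 fell from 48 h (17.4%) and 7 fell from 96 h (21.7%), and the median log2 ratios of the 10 were -0.51, -1.18 and -1.51, with all genes between -0.03 and -0.01. Pdk1 went from 131 to 63.9, 23.0 and 14.1 FPKM, Hk2 from 85.1 to 35.1, 39.9 and 17.2, and Pfkp from 104 to 23.9, 19.0 and 17.8. Pkm went from 1239 to 1062, 630.1 and 399, and Pgk1 from 407 to 273, 179 and 143. Hk1 was at 36.2, 9.14, 6.99 and 12.8 FPKM. Both transporters were higher from 48 and 96 h than from 0 h. Slc2a3 was at 304, 332, 1088 and 437 FPKM, which was 3.58-fold higher from 48 than from 0 h, where 15.1% of all genes rose. Slc2a1 was at 73.5, 71.7, 125 and 154 FPKM, and was the only member that rose from 96 h, where 21.5% of all genes did. None of these values uses the 0 h timepoint of the time course. The summed fibroblast markers rose along the same conditions, from 206 to 672 FPKM, with 12 of 20 higher from 48 h and 13 from 96 h. Single markers moved apart. Fn1 was at 188 FPKM from 0 h and 104 from 96 h, while Acta2 went from 2.61 to 255 and Col1a2 from 0.788 to 86.0. The sum thus does not stand for all 20 markers, and their part in the members' fall was not tested. Of the 16 other glycolytic enzymes 5 also fell between 0 and 96 h in these cells, namely Gpi1, Aldoa, Aldoc, Pgam1 and Eno1.

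The +dox against -dox comparison asks what OSKM adds to the return to serum and LIF. The counts of changed members were near or below the share of all genes after 0, 24 and 96 h, and above it after 48 h. After 0 h of differentiation 1 of 10 changed, beside 9.23% of all genes, which was Slc2a1 at 33.0 FPKM with dox against 73.5 without. The other 9 ran from 1.75-fold lower (Pdk1, 74.9 against 131 FPKM) to 1.41-fold higher (Hk1, 51.2 against 36.2 FPKM), and 8 of the 10 were lower with dox, with a median log2 ratio of -0.51 (with totals set equal Slc2a3 also turns lower). After 24 h no member changed, beside 6.27% of all genes. The widest ratios were those of both transporters, Slc2a3 at 209 against 332 FPKM and Slc2a1 at 45.5 against 71.7.

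After 48 h of differentiation 4 members changed, beside 13% of all genes. Both transporters were lower with dox, Slc2a1 at 39.6 against 125 FPKM (3.16-fold) and Slc2a3 at 446 against 1088 (2.44-fold). Pdk1 was higher with dox, at 50.7 against 23.0 FPKM (2.21-fold), and so was Pfkp, at 39.7 against 19.0 (2.09-fold). With dox, Slc2a3, Pfkp and Pdk1 lay nearer than without it to their values in cells re-seeded from 0 h without dox (304, 104 and 131 FPKM). Slc2a1, at 39.6 FPKM with dox and 125 without, lay on either side of its value there (73.5 FPKM). In cells re-seeded from 0 h with dox Slc2a1 was at 33.0 FPKM. These 4 members were picked by the same values that are compared here. Of the other members Hk1, Hk2 and Pkm also lay nearer with dox, whereas Ldha, Pgk1 and Pfkl lay slightly farther. In the same pair the naive markers summed to 343 FPKM with dox and 156 without, and the fibroblast markers to 354 and 489.5. Among the fibroblast markers Acta2 was at 60.2 against 136 FPKM, and Fn1 went the other way, at 145 against 98.3. The naive and fibroblast sums thus differed between the arms in opposite directions, and their part in the 4 changes was not tested. The remaining 6 members ran from 1.09-fold lower (Ldha, 269 against 292 FPKM) to 1.53-fold higher (Hk1, 10.7 against 6.99 FPKM). Pfkm was also higher with dox, at 28.6 against 12.7 FPKM, and Pfkfb3, which makes an activator of phosphofructokinase, was lower at 9.96 against 35.5.

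After 96 h 1 member changed, beside 17.7% of all genes, which was Hk2 at 40.0 FPKM with dox against 17.2 without. Slc2a3, Pdk1 and Pkm were at 655 against 437, 24.2 against 14.1 and 589 against 399 FPKM, all short of 2-fold. Slc2a1 was at 174 and 154 FPKM. Of the 10 members 9 were higher with dox and Pfkl was lower, at 43.9 against 47.1 FPKM (with totals set equal Ldha also turns lower), and the median log2 ratio was 0.47. Fibroblast markers summed to 473 FPKM with dox and 672 without. Among them Acta2 was at 193 against 255 FPKM, and Thbs1 went the other way, at 79.9 against 39.4. Hk1 was the only member with a ratio above 1 at all 4 differentiation times, between 1.27 and 1.53, and it met the rule at none.

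**Figure D4:**
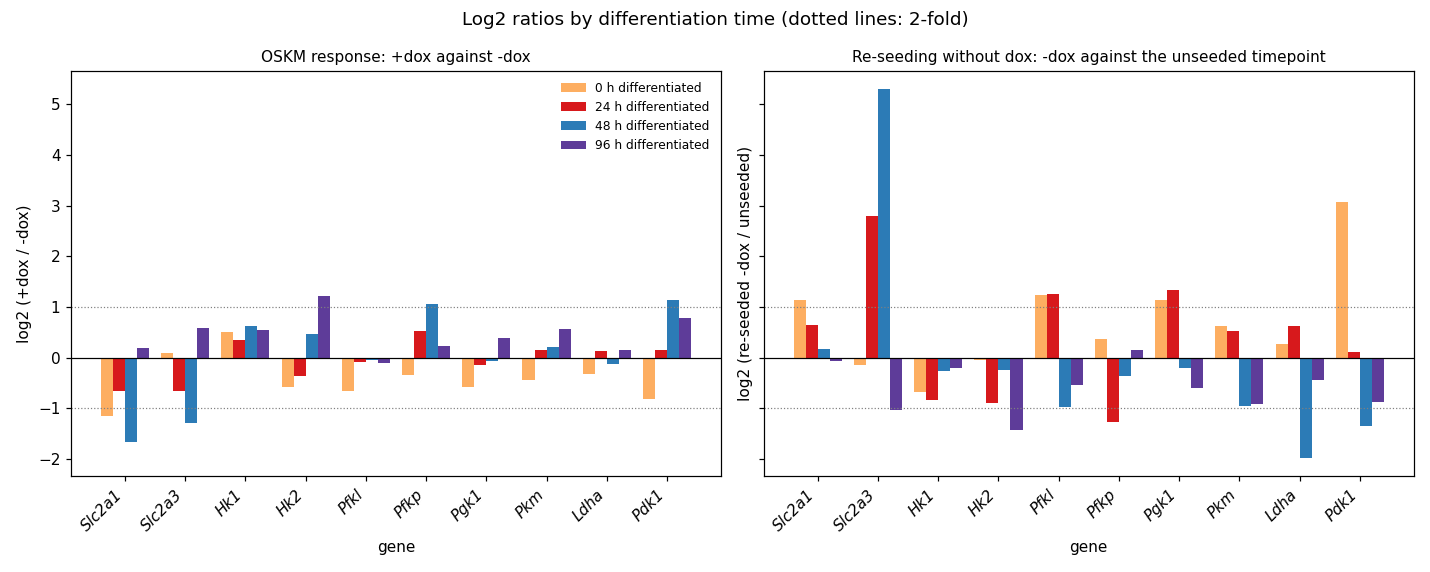
Log2 ratios of the 10 genes for +dox against -dox (left) and for re-seeding without dox against the unseeded timepoint (right), with bars coloured by hours of differentiation and dotted lines at 2-fold. Bars on the left stay within the dotted lines except for Slc2a1 at 0 and 48 h, Slc2a3, Pfkp and Pdk1 at 48 h and Hk2 at 96 h; the tallest bar on the right is Slc2a3 at 48 h, 5.29.

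Counted against the 0 h value of the same arm, fewer members fell with dox than without. The 0 h values differed, since the members were lower with dox there (median log2 ratio -0.51), such as Pgk1 at 273 against 407 FPKM. Fewer of all genes fell with dox too, 13.4% against 17.4% from 48 h. Against 0 h, 3 members fell from 24 h (Hk1, Hk2 and Pfkp, beside 9.78% of all genes), 3 from 48 h (Hk1, Pfkp and Ldha, 13.4%) and 3 from 96 h (Hk1, Pfkp and Pdk1, 19.2%), where Slc2a1 and Slc2a3 also rose (16.6% of all genes did). The difference between the dox arms was not tested. Pgk1 was at 273, 249, 171 and 186 FPKM with dox, Pkm at 916, 1175, 731 and 589, Ldha at 543, 747, 269 and 432, and Pfkl at 60.0, 65.6, 41.0 and 43.9. Without dox Ldha was at 683, 679.9, 292 and 387 FPKM and Pfkl at 95.1, 69.9, 42.2 and 47.1. Ldha was thus lowest in both arms at 48 h, the time at which it peaked in the unseeded cells.

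The order of the members by FPKM was steady at its ends and not in between. Pkm was the highest in 11 of the 15 conditions and Slc2a3 in the other 4, which were 96 h unseeded, 48 h without dox, and 96 h with and without dox. Hk1 was the lowest in 13 conditions, Pdk1 at 0 h unseeded and Slc2a1 at 0 h with dox. Neighbours in the order can lie close, such as Pfkp and Hk2 in cells re-seeded from 96 h without dox, at 17.8 and 17.2 FPKM, and with no spread such pairs cannot be ordered.

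Slc2a3 lies 13175 bp from Nanog, the gene whose locus carries the GFP reporter in all these cells. Nanog was at 227, 6.45, 38.9 and 14.5 FPKM at 0, 48, 72 and 96 h, and was thus below its 72 h value at 96 h, where Slc2a3 had its time course maximum. Dppa3, a naive marker on the same side, was at 168, 11.3, 6.58 and 2.42 FPKM. Foxj2 on the other side was at 2.78, 1.69, 4.53 and 6.34 FPKM and Necap1 at 31.2, 15.0, 22.4 and 24.3. Pearson's r of log2(FPKM + 1) between Slc2a3 and Nanog was 0.44 over the 7 timepoints and 0.18 over the 15 conditions. In cells re-seeded from 48 h without dox Slc2a3 was at its highest while Nanog was at 32.9 FPKM and Dppa3 at 4.08.

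**Figure D5:**
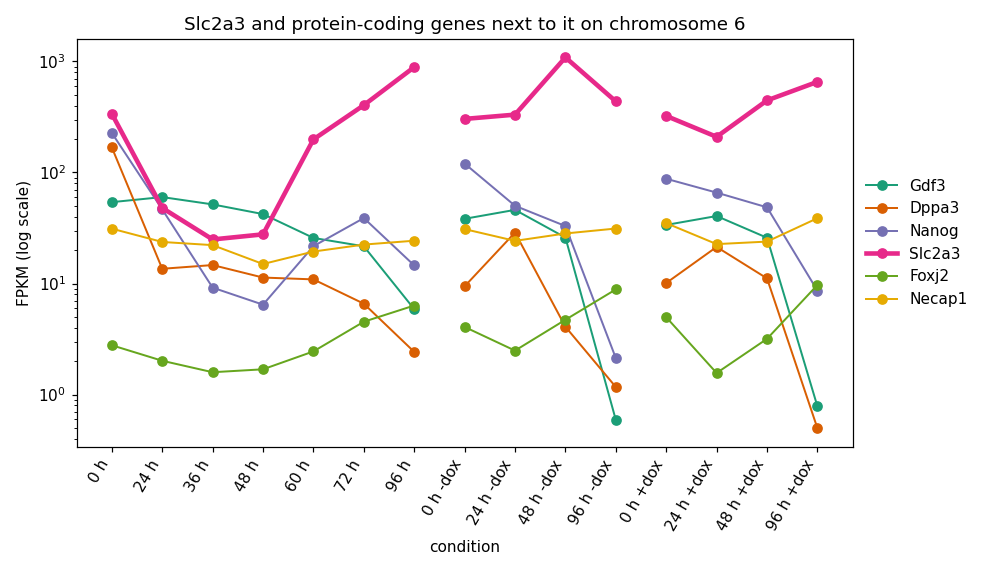
FPKM (log axis) of Slc2a3 (thick line) and of protein-coding genes near it on chromosome 6 in the 15 conditions. In the time course Slc2a3 dips and ends at 889.5 FPKM, whereas Nanog ends at 14.5 FPKM and Dppa3 and Gdf3 are lowest at 96 h.

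The genes whose course over the 15 conditions was most like a member's were taken from the 9059 genes that reached 10 FPKM anywhere, by Pearson's r of log2(FPKM + 1), with no p-value. For Slc2a3 they were Llgl2 (r = 0.96) and Gadd45b (0.93), and for Slc2a1 Gprc5c (0.93) and Fzd2 (0.90). For Hk1 they were Pgm1 (0.97) and Vps54 (0.96), for Hk2 Anp32a (0.91) and Spc24 (0.90), for Pfkp Ptprtos and Tcl1 (both 0.96), and for Pfkl Clk2 (0.84) and Tpi1 (0.81). For Pgk1 they were Aldoa (0.89) and Kdm1a (0.86), for Pkm Prpsap1 (0.92), for Ldha Pex10 (0.88) and Hira (0.86), and for Pdk1 Gm10244 and Pick1 (both 0.91). Aldoa, Tpi1 and Pgm1 among these, named for Pgk1, Pfkl and Hk1, act in glycolysis or beside it. No such gene was named for either transporter, nor for Hk2, Pfkp, Ldha or Pdk1.

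Some values could hold reads of other genes. Slc2a1 overlaps the antisense RNA Gm12868, which reached 17.5 FPKM, and the 3′ end of Pfkp overlaps that of Pitrm1, which reached 61.7 FPKM; whether the counting used strand is not stated. Ldha, Pgk1, Pkm and Gapdh have processed pseudogenes in the mouse genome, and how reads shared with them were assigned is not stated.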

How the data were processed

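RNA-seq of 30 samples in 15 conditions was analysed. Following the study's methods, the authors aligned reads to mm10 with TopHat 2.0.14 and the Gencode vM4 annotation, quantified transcripts above a length limit from selected biotypes with Cuffquant of Cufflinks 2.2.1, and combined both replicates of a condition with Cuffdiff. The deposited values are FPKM, 1 per condition, and the library normalization behind them is not given in the sources used here. The table also has 5 columns with the authors' own calls of dynamic genes and of the response to dox, which were not used.

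No counts and no replicate values are in the table, so nothing was tested, depth is unknown, and no interval or floor is given. FPKM summed to between 603278 and 832607 per condition. Factors from median ratios lay between 0.990 and 1.03, and the values were used unscaled.

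With Python 3.11.15, numpy 2.4.6 and pandas 2.3.3 a gene was called changed at a plain ratio of 2 or more where the larger value reached 1 FPKM. The error rate of this rule was not tested, because the spread between replicates is unknown. Plots used matplotlib 3.10.9. Gene positions come from an mm10 annotation (GENCODE M21), not the authors' release. Promoters are those of RefSeq.

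All members were named. From each of the other lists, up to 4 genes with the largest log2 ratio of 96 to 0 h and up to 2 with the largest ratio of +dox to -dox after 48 h, of at least 10 FPKM, could be named, beside Gapdh, Aldoa, Eno1, Hif1a, Myc and Txnip. Likeness used log2(FPKM + 1), and 1 of the genes it picked is not reported here. The members and lists were chosen with earlier results of these data known. Other genes named in the text were chosen after their values were seen. Alternatives were no minimum, 1 FPKM in both values, 1 FPKM added, median ratio scaling, totals set equal, and a 1.5-fold threshold.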

Additional observations from a re-analysis of the deposited data

Results flagged for a closer look

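In the following cases the same contrast moved a member by at least 1.5-fold one way at one differentiation time and the other way at another. Each side is a single combined value, so the difference between the times was not tested.

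The response to dox turned for a transporter and a kinase. Slc2a3 had a log2 ratio of +dox to -dox of -1.29 after 48 h and 0.59 after 96 h, which is 1.87 higher at 96 h. Pdk1 had -0.81 after 0 h and 1.14 after 48 h, which is 1.95 higher at 48 h.

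The response to re-seeding without dox turned for 6 members. For Slc2a3 the log2 ratio of re-seeded to unseeded cells was 5.29 (48 h) and -1.03 (96 h), a difference of -6.32. For Pdk1 it was 3.07 at 0 h and -1.35 at 48 h, a difference of -4.42. For Ldha it was 0.62 at 24 h and -1.97 at 48 h, a difference of -2.59, and for Pfkl 1.26 and -0.97 at the same times, a difference of -2.23. For Pgk1 it was 1.33 at 24 h and -0.61 at 96 h, a difference of -1.93. For Pkm it was 0.63 at 0 h and -0.95 at 48 h, a difference of -1.58. The values at 0 h have 1355 FPKM of fibroblast markers on the unseeded side, and the part of these in the Pdk1 and Pkm ratios was not tested.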

How the results depend on the processing

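No paired analysis was possible because the table holds 1 combined value per condition, although the labels number the replicates; leaving out a replicate was not possible for the same reason, and depth is unknown. The counts of changed members in 14 comparisons were recomputed under 6 alternatives, which gave 84 counts, of which 73 stayed within 1.5 times. Without a minimum, with 1 FPKM in both values and with 1 FPKM added, none moved further. At a 1.5-fold threshold the count was 8 in place of 4 for 48 against 24 h, 6 in place of 3 for 96 against 48 h and 7 in place of 4 for 96 against 0 h. It was 3, 2 and 3 in place of 1, 0 and 1 for +dox against -dox after 0, 24 and 96 h, and 8, 5 and 5 in place of 4, 3 and 2 for re-seeding without dox at 24, 48 and 96 h. This follows from the lower threshold. With totals set equal, Pdk1 joined Slc2a1 after 0 h of differentiation with dox, a count of 2. With median ratio scaling, Slc2a3 lost its call for re-seeding at 96 h, a count of 1. Chosen after seeing the data, leaving out 0 h gave 7 in place of 8 for any pair of timepoints, and starting from 24 h gave 5 in place of 4 at 96 h.

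Of 390 recomputed log2 ratios of members no called one changed sign, and 8 uncalled ones did, all with totals set equal and none above 0.16 in size. That scaling shifted the median log2 ratio of all genes by up to 0.25, and median ratio scaling by up to 0.08.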

Other observations

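Of 18 genes known as targets of the hypoxia response, which include Pfkfb3 but no glycolytic enzyme, 8 fell and none rose between 0 and 24 h, when 14.3% of all genes fell. Of the 20 fibroblast markers 16 fell and 2 rose in that interval, and their part in it was not tested. Between 48 and 96 h 9 of the 18 rose and none fell, when 15.1% of all genes rose. Vegfa, the endothelial growth factor, was at 29.2 FPKM at 0 h, 5.78 at 24 h and 64.0 at 96 h. Bnip3, a mitophagy receptor, was at 31.4, 22.9 and 77.8 FPKM at these times, and at 75.2 at 36 h and 54.7 at 48 h. It met the rule neither from 0 to 24 h nor from 48 to 96 h. In cells re-seeded from 0 h, 5 of the 18 were lower with dox and none higher (9.23% of all genes changed), among them Bnip3 at 13.3 against 88.9 FPKM and Egln3, a HIF prolyl hydroxylase, at 2.49 against 15.3. Hif1a was between 5.40 and 10.4 FPKM in the 15 conditions. Epas1, another HIF alpha subunit, went from 15.3 FPKM at 0 h to 38.1 at 24 h and then to 11.2, 4.82, 1.60, 0.97 and 1.08 FPKM at the following timepoints.

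Txnip, an inhibitor of glucose uptake whose transcript is known to follow glucose supply, was at 293 FPKM at 0 h, dropped to 94.4 by 24 h, stood at 817 by 96 h, and reached 1091 in cells re-seeded from 0 h without dox, against 489 with dox. Its low point at 24 h lies in the trough of Slc2a3. Myc was at 2.53 FPKM at 0 h and 40.7 at 24 h, and between 18.7 and 57.6 in the re-seeded cells, where a Myc transgene is present in both arms; whether its reads were counted is not stated. Lin28a and Lin28b, RNA-binding proteins linked to glucose metabolism, went from 30.6 to 188 and from 1.05 to 12.2 FPKM between 0 and 96 h, while Esrrb, a naive factor, fell from 149.9 to 3.07 FPKM.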
